A study of Mus musculus with 20 samples.

Results

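Myelin is unusually rich in galactosylceramide and its sulfated form sulfatide, the galactolipids that oligodendrocytes build into the sheath around axons. The genes of this synthesis examined here numbered 8 and were chosen by name for their roles in making sphingolipids and very long chain lipids for myelin: Fa2h, Ugt8a, Gal3st1, Cers2, Aspa, Elovl1, Elovl7 and Gltp. All 8 were found by Ensembl identifier among the 29200 genes of the count table. All 8 were also among the 12153 genes tested, those averaging 50 or more counts per library.

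The libraries came from cerebella of male C57BL6/N mice, 5 mice in each of 4 groups. WT/WT mice carried both normal Atxn3 alleles (their labels name ataxin-2), and 304Q/304Q mice carried on both alleles a knock-in of 304 CAACAG interrupted repeats in the murine Atxn3 gene, which codes for the deubiquitinase expanded in spinocerebellar ataxia type 3 (SCA3). Each genotype was taken at 2 months, which the study calls pre-symptomatic, and at 12 months, which it calls symptomatic. In male 304Q/304Q mice it reports lower body weight than in WT/WT before 12 months, but better RotaRod performance at 12 months. The 304Q/304Q mice descend from 1 founder line, express the expanded gene under its own regulatory elements in all cells that use it, and were compared with WT/WT littermates. The comparisons ask what the expansion changes at each age, what age changes in each genotype, and whether the effect of genotype differs between the ages. Each group enters more than 1 of these comparisons, so they are not independent of each other.

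In this pathway, the elongases Elovl1 and Elovl7 lengthen fatty acids to the very long chains typical of myelin. Fa2h, fatty acid 2-hydroxylase, adds the hydroxyl group that marks a large share of myelin galactolipids, and Cers2, ceramide synthase 2, joins very long acyl chains to the sphingoid base. Ugt8a transfers galactose to ceramide to give galactosylceramide, and Gal3st1, cerebroside sulfotransferase, turns this lipid into sulfatide. Gltp moves glycolipids between membranes. Aspa, aspartoacylase, splits N-acetylaspartate in oligodendrocytes and so frees acetate for lipid synthesis.

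On GRCm38, Fa2h (ENSMUSG00000033579) lies at chr8:111345135-111393824, Ugt8a (ENSMUSG00000032854) at chr3:125865271-125938619, Aspa (ENSMUSG00000020774) at chr11:73304992-73329596 and Gltp (ENSMUSG00000011884) at chr5:114669398-114690984, all on the minus strand. Gal3st1 (ENSMUSG00000049721) lies at chr11:3983636-3999326, Cers2 (ENSMUSG00000015714) at chr3:95314791-95323599, Elovl1 (ENSMUSG00000006390) at chr4:118428093-118432953 and Elovl7 (ENSMUSG00000021696) at chr13:108214404-108285683, all on the plus strand. The counts are sums over the exons of each gene. Cers2 overlaps Setdb1 and the antisense gene 6330562C20Rik, Elovl1 overlaps Cdc20, and Elovl7 overlaps the processed pseudogenes Gm32376 and Gm30747. Whether the counting used strand was not given in the sources used here, so the values of Cers2, Elovl1 and Elovl7 may hold reads of these neighbours. The other 5 genes overlap no annotated gene.

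RefSeq promoter windows on GRCm38.p6 were available for 7 of the 8 genes, Fa2h being the exception. The 250 bases before the first listed start are shown for Ugt8a and Gal3st1, the consecutive galactosylceramide and sulfatide enzymes that both fell with age in 304Q/304Q mice, and for Gltp and Aspa, which passed the test in no comparison. Capitals mark matches, on either strand, to 6 motifs. They were the GC box GGGCGG, the E-box of bHLH factors with the letters CAGCTG, the SOX motif with either ACAAAG as its letters or else with ACAATG, the MYRF motif with either CTGGCAC as its letters or else with CTGGTAC, the CCAAT box, and the TATA box written as TATAAA. Adjoining or overlapping matches run together. All are written 5′ to 3′ on the gene's strand, from chr3:125938653-125938902 (minus), chr11:3983386-3983635 (plus), chr5:114690936-114691185 (minus) and chr11:73324638-73324887 (minus).
Ugt8a: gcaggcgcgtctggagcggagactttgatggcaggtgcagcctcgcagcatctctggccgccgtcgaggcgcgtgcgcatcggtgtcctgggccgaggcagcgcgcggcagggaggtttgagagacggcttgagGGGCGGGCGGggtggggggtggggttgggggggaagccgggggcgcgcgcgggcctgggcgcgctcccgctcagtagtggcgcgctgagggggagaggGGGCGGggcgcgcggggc
Gal3st1: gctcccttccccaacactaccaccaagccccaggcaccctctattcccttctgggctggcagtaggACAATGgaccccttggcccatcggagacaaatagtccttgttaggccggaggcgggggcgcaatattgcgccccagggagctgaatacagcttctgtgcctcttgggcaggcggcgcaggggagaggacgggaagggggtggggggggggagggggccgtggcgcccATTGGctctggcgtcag
Gltp: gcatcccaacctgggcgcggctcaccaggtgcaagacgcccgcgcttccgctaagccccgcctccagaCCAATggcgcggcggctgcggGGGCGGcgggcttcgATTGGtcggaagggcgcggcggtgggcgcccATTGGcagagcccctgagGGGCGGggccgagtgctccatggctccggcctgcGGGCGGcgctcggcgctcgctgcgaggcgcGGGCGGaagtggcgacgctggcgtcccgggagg
Aspa: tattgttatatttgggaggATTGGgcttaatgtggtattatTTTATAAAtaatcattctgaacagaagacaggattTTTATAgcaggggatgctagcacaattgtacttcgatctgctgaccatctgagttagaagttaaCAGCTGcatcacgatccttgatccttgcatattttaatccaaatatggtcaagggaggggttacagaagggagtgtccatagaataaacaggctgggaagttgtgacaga
The Ugt8a window held 3 GC boxes, of which a pair overlaps, and 76.8% G or C. Gltp held 4 GC boxes and 3 CCAAT boxes at the same 76.8% G or C. The Gal3st1 window had neither GC box nor E-box, but 1 SOX match and, 17 bases before the start, 1 CCAAT box. Aspa stood apart with 38.8% G or C, 3 matches to TATAAA, of which a pair overlaps, and 1 E-box.

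Among the first windows of the 7 genes, 5 held a GC box (Ugt8a, Cers2, Elovl1, Elovl7 and Gltp), against 32.7% of all 32851 RefSeq windows of this length. A CCAAT box was present in 5 of the 7, against 33.8%. In these first windows the E-box occurred in Aspa alone (13.0% of all windows) and the SOX letters in Gal3st1 alone (25.2%). No first window of the 7 held the MYRF letters, which 5.93% of all windows hold. TATAAA was found in Aspa alone, against 12.4%. The shares, however, count all listed starts of every gene and not only first ones. Over all 11 windows of the 7 genes, the GC box and the CCAAT box were each in 6. The E-box and the SOX letters were each in 2, TATAAA in 1 and the MYRF letters in 0. Windows of the same gene can overlap. These matches describe letters in the windows and are not binding sites.

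Gltp was the most abundant of the 8 transcripts and Aspa the least in every group. On the RPKM scale, counts scaled to library size and exon length, Gltp lay at 31.2 ± 3.4 (SD, n = 5) and Aspa at 1.67 ± 0.23 in WT/WT mice at 2 months. Between them the order in that group was Fa2h (21.0 ± 1.1), Cers2 (15.2 ± 0.45), Ugt8a (11.7 ± 1.7), Elovl1 (6.63 ± 1.1), Gal3st1 (4.22 ± 0.57) and Elovl7 (3.69 ± 0.40). The order of the means was the same in 304Q/304Q mice at 2 months and in WT/WT mice at 12 months. In 304Q/304Q mice at 12 months Cers2 (13.9 ± 1.6) stood above Fa2h (11.9 ± 2.0) in each of the 5 mice, although the ranges of these neighbours overlapped. Gal3st1 and Elovl7 overlapped in all 4 groups, Elovl1 and Gal3st1 overlapped at 2 months in both genotypes, and Ugt8a and Elovl1 overlapped at 12 months in both genotypes. Scaled to the longest transcript instead, Cers2 already ranked above Fa2h in 304Q/304Q mice at 2 months and in WT/WT mice at 12 months, and Elovl1 ranked above Ugt8a at 12 months.

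**Figure D1:**
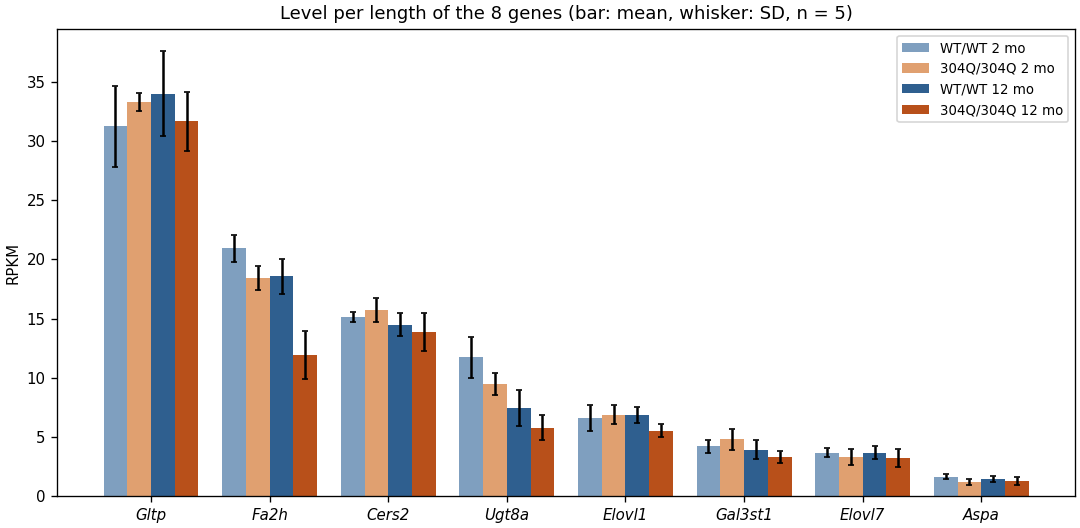
Mean level of each gene in RPKM, counts scaled to library size and exon length (y axis, linear), with bars for the 4 groups and whiskers for the SD over 5 mice. Gltp is highest in each group, and Fa2h is the gene whose bar in 304Q/304Q mice at 12 months (11.9) lies farthest under that of WT/WT mice at 12 months (18.6).

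Library totals ranged from 11385380 to 27636687 counts, the highest being replicate 1 of the 304Q/304Q mice at 2 months. The tissue label was checked with marker lists. The summed granule cell markers lay between 4920 and 6550 CPM and the Purkinje cell markers between 5160 and 7320 CPM. The Schwann cell markers, of the myelinating cells outside the brain, summed to between 4.11 and 9.18 CPM. Choroid plexus markers varied most, from 15.8 to 2100 CPM. The targeted gene Atxn3 stood at 277.9 ± 42.1 (WT/WT) and 191.5 ± 30.9 (304Q/304Q) normalized counts at 2 months (adjusted p = 0.0916), and at 222.2 ± 16.0 and 203.4 ± 17.6 at 12 months (adjusted p = 0.51), both p-values Benjamini-Hochberg adjusted from the quasi-likelihood test of edgeR. The counts do not show the repeat itself. Because whole cerebellum was sequenced, fewer oligodendrocytes and less RNA per oligodendrocyte cannot be told apart in any value that follows.

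At 12 months Fa2h fell in 304Q/304Q mice to 0.642 of its WT/WT level and was the only one of the 8 genes to pass the test. Ugt8a and Elovl1 had lower means in 304Q/304Q mice that narrowly missed the threshold. Cers2 and Gltp, both as abundant in counts as Fa2h, differed by less than the spread between mice.

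Fa2h had 758.4, 748.3, 747.2, 820.5 and 893.7 normalized counts in the WT/WT mice at 12 months, and 439.5, 636.9, 561.4, 457.9 and 453.7 in the 304Q/304Q mice. Every 304Q/304Q mouse was below every WT/WT mouse, with replicate 2 the highest of them. The means were 793.6 ± 63.6 and 509.9 ± 86.0 (SD, n = 5), a log2 fold change of -0.64 (SE 0.087, 95% interval -0.82 to -0.46, Benjamini-Hochberg adjusted p = 1.63e-05 in the quasi-likelihood test of edgeR). Fa2h was thus a DEG, which required an adjusted p no higher than 0.05 as well as an absolute log2 FC of 0.5 or more. The study itself singled out Fa2h from these libraries among the oligodendrocyte genes changed in mice and patients, so its fall here is not independent evidence.

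The share of members called was 1 of 8, beside 12.5% of all genes tested that passed, 7.3% that passed with a lower level, and 3.09% that were DEGs. Fa2h was likewise the only member whose groups did not overlap, beside 5.43% of all genes that were lower without overlap. All 8 log2 fold changes were below 0, from -0.64 to -0.07, beside 50.9% of all genes. With surrogate variables, however, Elovl7 was above 0 (0.04 in DESeq2 and 0.03 in edgeR). The median of the 8 was -0.22, against -0.004 over all genes tested.

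Ugt8a had 644.8, 414.3, 432.9, 416.2 and 487.4 normalized counts in WT/WT mice at 12 months and 322.2, 473.0, 396.3, 381.6 and 297.1 in 304Q/304Q mice. The groups overlapped, since replicate 2 of the 304Q/304Q mice exceeded 3 of the WT/WT mice. The log2 fold change was -0.36 (SE 0.13, adjusted p = 0.0736). Ugt8a passed the test without that mouse (adjusted p = 0.0285), with DESeq2 (0.0459), with surrogate variables in either tool, and after the trends with GC content and length were removed (0.000224). It missed the threshold in the other 19 fits that left out 1 mouse. Without replicate 1 of the WT/WT mice at 12 months, the highest of that group, the log2 fold change was -0.23 (adjusted p = 0.188).

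Elovl1 had 239.4, 235.9, 281.1, 283.9 and 286.4 normalized counts in the WT/WT mice and 211.0, 207.1, 246.3, 187.5 and 221.8 in the 304Q/304Q mice. Only replicate 3 of the 304Q/304Q mice reached into the WT/WT range. The log2 fold change was -0.31 (SE 0.12, adjusted p = 0.0844), and Elovl1 passed only without replicate 3 of the WT/WT mice at 2 months, which enters through the shared estimate of spread (adjusted p = 0.0474).

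The other 5 members had adjusted p-values between 0.323 and 0.588. Gal3st1 averaged 114.3 ± 23.7 normalized counts without and 96.2 ± 15.4 with the expansion, and its 95% interval of the log2 fold change ran from -0.59 to 0.08. The other elongase, Elovl7, had 210.1 ± 31.3 and 184.5 ± 45.2, with an interval from -0.51 to 0.13. Aspa had 123.9 ± 18.0 and 109.5 ± 26.0, with an interval from -0.55 to 0.18. For these 3 genes of lower count the intervals still hold falls of the size of 0.5. The intervals were narrower for Cers2, with 757.8 ± 51.8 and 724.2 ± 83.1 normalized counts (-0.21 to 0.08), and for Gltp, with 851.0 ± 89.8 and 792.7 ± 63.0 (-0.26 to 0.06).

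**Figure D2:**
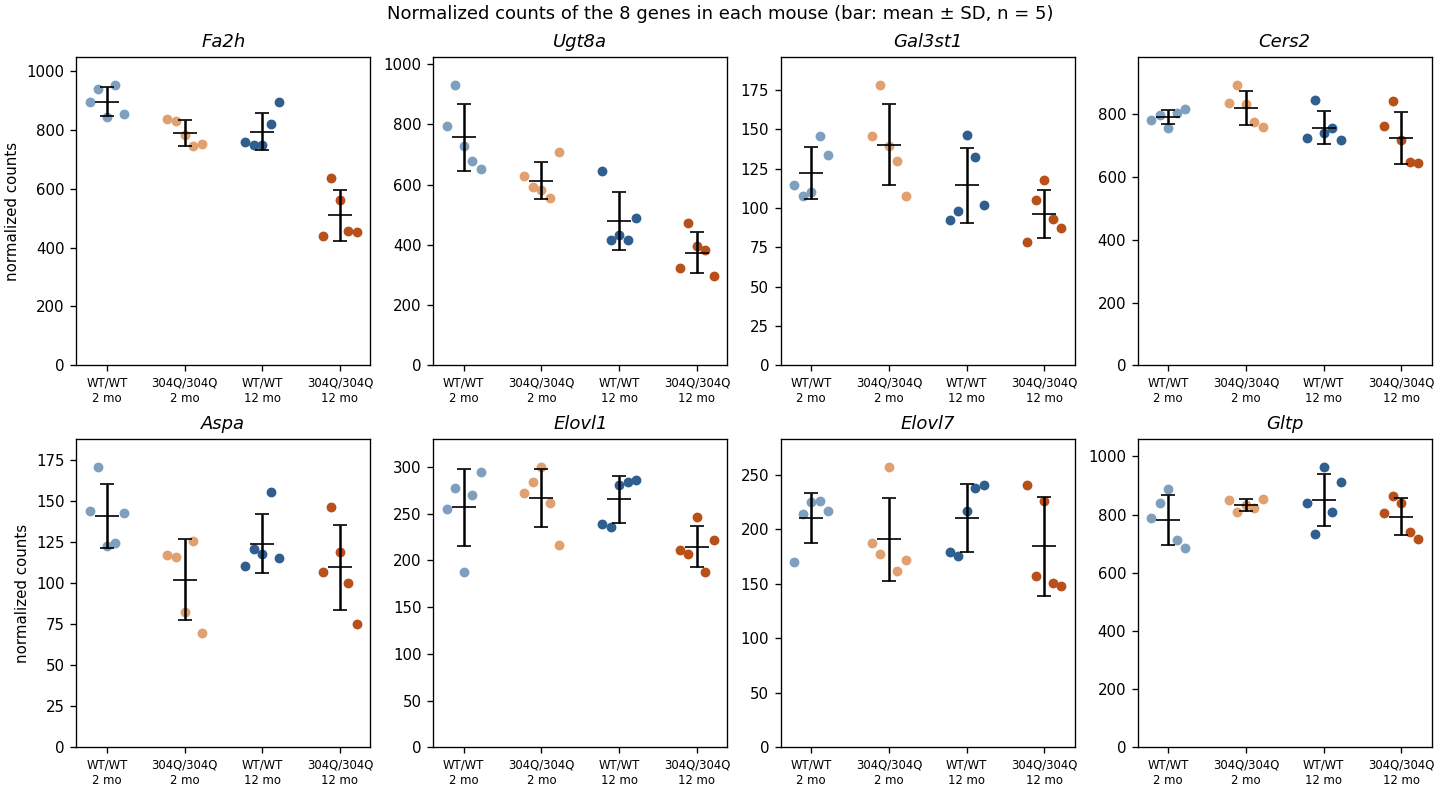
Normalized counts (y axes, linear from 0) of the 8 genes, 1 panel each, with a point per mouse and the mean ± SD of 5 mice in black. In the Fa2h panel the 304Q/304Q mice at 12 months sit between 439.5 and 636.9, under the lowest mouse of the other groups (745.2), while the Gltp and Cers2 panels show overlapping groups.

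Markers of other cells moved at 12 months as well. The summed level of the 10 myelinating oligodendrocyte markers, which hold none of the 8 genes, spanned 5290 to 6020 CPM for WT/WT mice and 3470 to 4810 CPM for 304Q/304Q mice. Of these markers 5 of 10 fell, among them Mbp, Mobp, Mal and Ermn, and no defining marker was at 0. The 6 Purkinje cell markers summed to 6320 to 6950 and 5160 to 5540 CPM, and 5 of 6 fell. The 5 blood genes summed to 116 to 246 and 96.2 to 112 CPM, and 4 of 5 fell. Astrocyte markers summed to 2320 to 2530 and 2220 to 2380 CPM, and 2 of 6 fell, both without overlap. Endothelial markers summed to 213 to 236 and 197 to 221 CPM, and 1 of 6 fell. Microglia markers summed to 118 to 147 and 124 to 162 CPM, and 1 of 6 rose. Beside these counts, 12.5% of all genes tested passed, and 7.3% passed with a lower level. The part of Purkinje cells, blood, astrocytes, endothelial cells and microglia in the values of the 8 genes was not tested.

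Set against other oligodendrocyte genes, Fa2h was lower also relative to the average myelin protein gene, whereas Ugt8a kept its ratio to it. These ratios are given as a description, without a test. In each mouse, the mean log2 CPM of the 10 myelinating markers was subtracted from the log2 CPM of each member. For Fa2h this ratio at 12 months was -1.64 ± 0.10 for WT/WT mice and -1.93 ± 0.11 for 304Q/304Q mice, ranges that did not overlap. The 304Q/304Q mice were thus lower by 0.29 on the log2 scale relative to myelin genes whose own mean was lower by 0.36. The list is uneven, however. Mobp, a structural myelin protein, had a log2 fold change of -0.80 (SE 0.066, adjusted p = 1.3e-08), more negative than Fa2h, and Mal, a raft protein that binds galactolipids, had -0.61 (SE 0.062, adjusted p = 2.53e-07). The study named Mobp and Mal with Fa2h from the same libraries.

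The same ratio for Ugt8a was -2.38 in both genotypes at 12 months (SD 0.31 and 0.20). For Gltp it was -1.54 ± 0.12 for WT/WT mice and -1.28 ± 0.11 for 304Q/304Q mice, higher without overlap. Gltp is used in many cell types. Cers2 had ratios of -1.70 ± 0.13 and -1.42 ± 0.12, with overlapping ranges.

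Against the 6 transcription factors of the oligodendrocyte lineage the picture was different for the list than for Fa2h. The mean log2 CPM of Olig1, Olig2, Sox10, Myrf, Nkx6-2 and Sox8 at 12 months was 4.92 ± 0.10 for WT/WT mice and 4.91 ± 0.19 for 304Q/304Q mice. Relative to it Fa2h was lower by 0.65 on the log2 scale, without overlap, and Ugt8a was lower by 0.35, with overlap. Myrf, the factor that drives myelin gene transcription, was the only one of the 6 that passed (log2 fold change -0.21, SE 0.066, adjusted p = 0.041), while Sox10 had -0.10 (SE 0.12, adjusted p = 0.631).

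**Figure D3:**
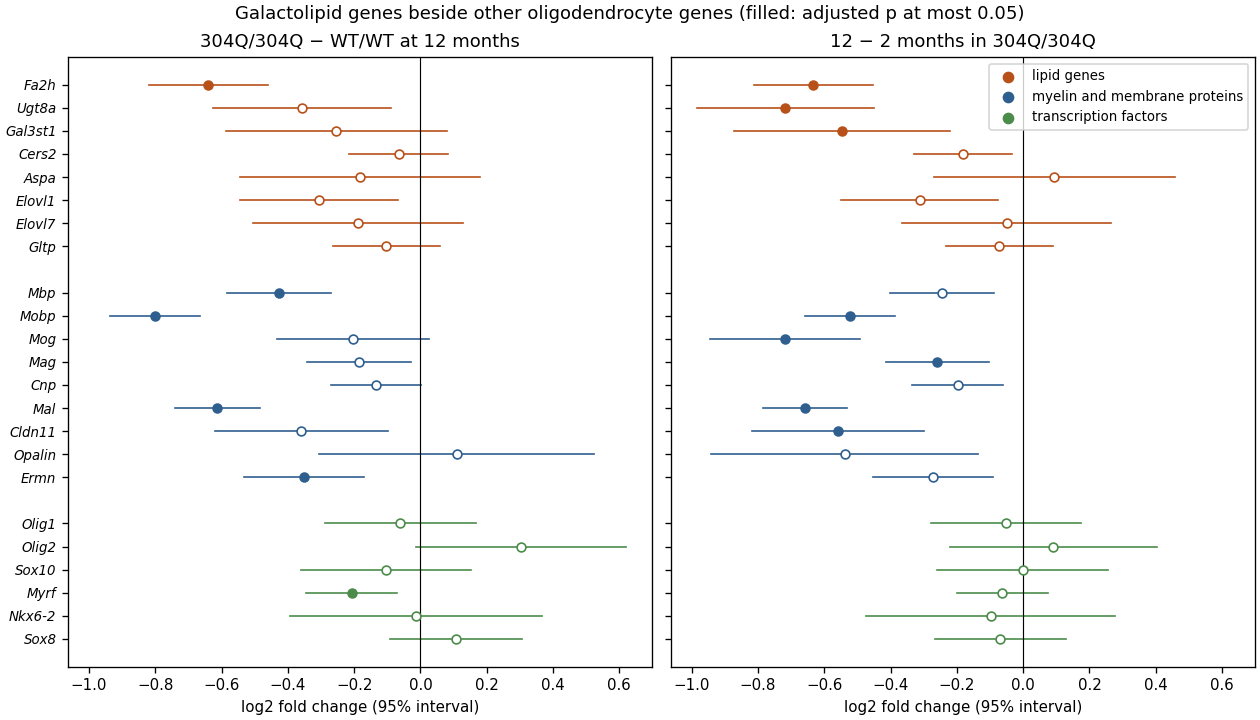
Log2 fold changes (x axes) with 95% intervals for the 8 lipid genes, 9 myelin and membrane protein genes and 6 transcription factors, for genotype at 12 months (left) and age in 304Q/304Q mice (right). Filled points passed an adjusted p of 0.05. Fa2h lies at -0.64 on the left and -0.63 on the right, among the lower myelin protein genes, and the transcription factors lie around 0.

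At 2 months none of the 8 genes passed the test. Fa2h, Ugt8a and Aspa, all with lower means in 304Q/304Q mice, had the smallest unadjusted p-values, while Gal3st1 had a higher mean (log2 fold change 0.19, SE 0.15, adjusted p = 0.933). Fa2h had 893.7, 937.5, 843.5, 952.1 and 852.4 normalized counts in WT/WT mice and 837.2, 829.4, 782.9, 745.2 and 751.0 in 304Q/304Q mice. Its groups did not overlap, but the lowest WT/WT and the highest 304Q/304Q mouse lay close together. The log2 fold change was -0.18 (SE 0.084, unadjusted p = 0.0414, adjusted p = 0.879 in edgeR's quasi-likelihood test).

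Aspa had 144.0, 170.7, 122.8, 124.3 and 142.8 normalized counts in WT/WT mice and 117.1, 115.9, 82.2, 125.9 and 69.6 in 304Q/304Q mice. Replicates 3 and 5 of the 304Q/304Q mice were far under the rest, and replicate 4 overlapped the WT/WT range. The log2 fold change was -0.46 (SE 0.17, unadjusted p = 0.0134, adjusted p = 0.771). Ugt8a had means of 756.5 ± 110.8 and 613.3 ± 60.1 and overlapping ranges, with a log2 fold change of -0.30 (SE 0.12, unadjusted p = 0.0239, adjusted p = 0.86).

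By edgeR 0 of 8 passed, beside 0.0494% of all genes, and DESeq2 with and without surrogate variables also called 0. At an unadjusted p under 0.05 there were 3 of 8, beside 5.55% of all genes. The 1 member that was lower without overlap, Fa2h, stands beside 0.551% of all genes. The log2 fold changes were below 0 for 4 members and above 0 for Gal3st1, Cers2, Elovl1 and Gltp, beside 50.7% of all genes below 0. For Cers2 and Gltp, the most precisely measured, the 95% intervals were -0.10 to 0.20 and -0.07 to 0.25. At this age the myelinating markers also differed, with sums of 5750 to 6600 CPM for WT/WT mice and 4980 to 5630 CPM for 304Q/304Q mice. Of these 10 markers 1 passed, Mal (log2 fold change -0.39, SE 0.061, adjusted p = 0.00668 in edgeR's quasi-likelihood test), beside the 0.0494% of all genes. Lower without overlap were 3 of the 10, beside the 0.551%. Relative to the mean of the 10 markers, Fa2h differed by -0.05 on the log2 scale, with overlap, and Cers2 by 0.18, without overlap. Relative to the mean of the 6 lineage transcription factors Fa2h differed by -0.33, without overlap. That mean was itself higher in 304Q/304Q mice (4.95 ± 0.10 log2 CPM) than in WT/WT mice (4.81 ± 0.21), with overlap. Part of this difference thus lies in the reference.

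Between 2 and 12 months, WT/WT mice showed a fall of Ugt8a and no other change among the 8 genes that passed. Ugt8a had 793.2, 930.2, 727.6, 679.0 and 652.6 normalized counts at 2 months and 644.8, 414.3, 432.9, 416.2 and 487.4 at 12 months. The ages did not overlap, but replicate 1 at 12 months came close to the lowest mouse at 2 months. The log2 fold change was -0.66 (SE 0.13, 95% interval -0.92 to -0.40, adjusted p = 0.00197). Ugt8a was a DEG here, although its log2 fold change was smaller than 0.5 in size with surrogate variables or with the GC and length trends removed.

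That made 1 of 8 passing, beside 11.5% of all genes tested (5.42% lower, and 2.58% DEGs in either direction), and 1 of 8 lower without overlap, beside 2.93%. Fa2h had 895.8 ± 48.8 normalized counts at 2 months and 793.6 ± 63.6 at 12 months in WT/WT mice, a log2 fold change of -0.18 (SE 0.085, adjusted p = 0.182). It passed only after the GC and length trends were removed (adjusted p = 0.0389). The other 6 members had adjusted p-values between 0.317 and 0.992, and Elovl7 had 210.4 ± 23.0 and 210.1 ± 31.3 normalized counts (log2 fold change -0.003). With surrogate variables the value for Elovl7 was -0.33 in both DESeq2 (adjusted p = 0.148) and edgeR (adjusted p = 0.162). In the same mice the summed granule cell markers were 6250 to 6550 CPM at 2 and 5090 to 5590 CPM at 12 months, and 4 of 6 fell. Microglia markers were at 90.6 to 103 and 118 to 147 CPM, and 4 of 6 rose. Astrocyte markers were at 2510 to 2900 and 2320 to 2530 CPM, of which 2 of 6 fell and 1 rose. Blood genes (93.8 to 227 and 116 to 246 CPM, 2 of 5 rose) and choroid plexus markers (15.8 to 23.3 and 17.7 to 2100 CPM, 2 of the 3 tested rose) overlapped between the ages in their sums. Oligodendrocyte precursor markers were at 84.2 to 95.7 and 71.1 to 78.1 CPM, without overlap, and 1 of 6 fell. Purkinje cell markers were at 6480 to 7320 and 6320 to 6950 CPM, and 2 of 6 rose. The part of these cells in the values of the 8 genes was not tested.

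The myelinating markers also moved with age in WT/WT mice, where 3 of 10 fell and their mean log2 CPM went from 7.68 ± 0.04 to 7.44 ± 0.06, without overlap. Relative to this mean Ugt8a differed between the ages by -0.43 on the log2 scale and Fa2h by 0.06, both with overlap. Relative to the lineage transcription factors the differences were -0.77 for Ugt8a and -0.29 for Fa2h, both with overlap. The mean log2 CPM of these factors was 4.81 ± 0.21 at 2 and 4.92 ± 0.10 at 12 months, with overlap.

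In 304Q/304Q mice, 3 members fell with age, Fa2h, Ugt8a and Gal3st1, which together hydroxylate the acyl chain, add the galactose and add the sulfate. Gal3st1 fell by 31.5%, Fa2h fell by 35.5% and Ugt8a fell by 39.2%. The genes that elongate fatty acids, join them to the base or transfer the finished lipid did not pass.

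Fa2h went from 837.2, 829.4, 782.9, 745.2 and 751.0 normalized counts at 2 months to 439.5, 636.9, 561.4, 457.9 and 453.7 at 12 months, a log2 fold change of -0.63 (SE 0.087, adjusted p = 2.99e-05). Ugt8a went from 629.7, 590.2, 583.0, 554.3 and 709.6 to 322.2, 473.0, 396.3, 381.6 and 297.1, a log2 fold change of -0.72 (SE 0.13, adjusted p = 0.000605). For both genes every mouse at 12 months was below every mouse at 2 months. Gal3st1 went from 145.9, 178.1, 139.5, 129.9 and 107.5 to 78.2, 105.2, 117.5, 92.7 and 87.3, a log2 fold change of -0.55 (SE 0.16, adjusted p = 0.0336). Its ages overlapped, as replicate 5 at 2 months lay under replicate 3 at 12 months. The Gal3st1 call was the least firm of the 3. It was lost without replicate 1, 2 or 3 at 2 months or replicate 1, 4 or 5 at 12 months, with adjusted p-values up to 0.121, and without a filter on low counts (0.0516).

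The 3 of 8 that passed, all DEGs, stand beside 7.26% of all genes that passed, 4.18% that passed with a lower level and 2.28% that were DEGs. The 2 that were lower without overlap stand beside 4.2%. The median log2 fold change of the 8 was -0.25, against -0.004 over all genes. Elovl1 had a log2 fold change of -0.31 (SE 0.11, adjusted p = 0.109) and Cers2 one of -0.18 (SE 0.071, adjusted p = 0.144). Each passed with DESeq2 and surrogate variables (0.049 and 0.0454) and without 1 mouse, replicate 5 at 2 months for Elovl1 (0.05) and replicate 2 at 12 months for Cers2 (0.0378). Aspa (0.09), Elovl7 (-0.05) and Gltp (-0.07) had log2 fold changes within 0.1 of 0. Myelinating markers in these mice summed to 4980 to 5630 CPM at 2 and 3470 to 4810 CPM at 12 months, with 6 of 10 falling. Microglia markers were 88.5 to 96.4 and 124 to 162 CPM, Purkinje cell markers 6110 to 6680 and 5160 to 5540 CPM, and blood genes 117 to 217 and 96.2 to 112 CPM. Astrocyte markers were 2460 to 2780 and 2220 to 2380 CPM, with 2 of 6 falling and 1 rising. Granule cell markers were 5450 to 6290 and 4920 to 5540 CPM, with 2 of 6 falling. Oligodendrocyte precursor markers were 83.9 to 94.5 and 71.1 to 83.7 CPM, with 1 of 6 falling. The part of these cells and of blood was not tested.

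Relative to the mean of the myelinating markers, Fa2h was lower at 12 than at 2 months in 304Q/304Q mice by 0.18 on the log2 scale, without overlap. Ugt8a was lower by 0.26, with overlap, and Gal3st1 by 0.07, with overlap. Gltp and Cers2 were higher relative to these markers with age, by 0.39 and 0.28, both without overlap. Both were also higher with age in WT/WT mice, by 0.36 and 0.18, again without overlap. This rise was therefore not particular to 304Q/304Q mice. Relative to the 6 lineage transcription factors the differences with age in 304Q/304Q mice were -0.61 for Fa2h, -0.69 for Ugt8a and -0.49 for Gal3st1, each without overlap.

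The difference between the genotype effects at the 2 ages was tested as an interaction. Fa2h alone passed, with a log2 interaction of -0.46 (SE 0.12, adjusted p = 0.0489), its genotype effect being -0.18 at 2 and -0.64 at 12 months. The count of 1 of 8 stands beside 1.95% of all genes in either direction and 1.31% below 0. This call sat at the threshold. It passed in 5 of 20 fits that left out 1 mouse (adjusted p 0.00679 to 0.105), in which the estimate ran from -0.55 to -0.41, and it missed the threshold with 3 other settings and with the replicate block. Gal3st1 had an interaction of similar size and a wider error (-0.45, SE 0.22, adjusted p = 0.327), and Elovl1 one of -0.36 (SE 0.16, adjusted p = 0.287). For Ugt8a the interaction was -0.06 (SE 0.18, 95% interval -0.43 to 0.31, adjusted p = 0.9).

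**Figure D4:**
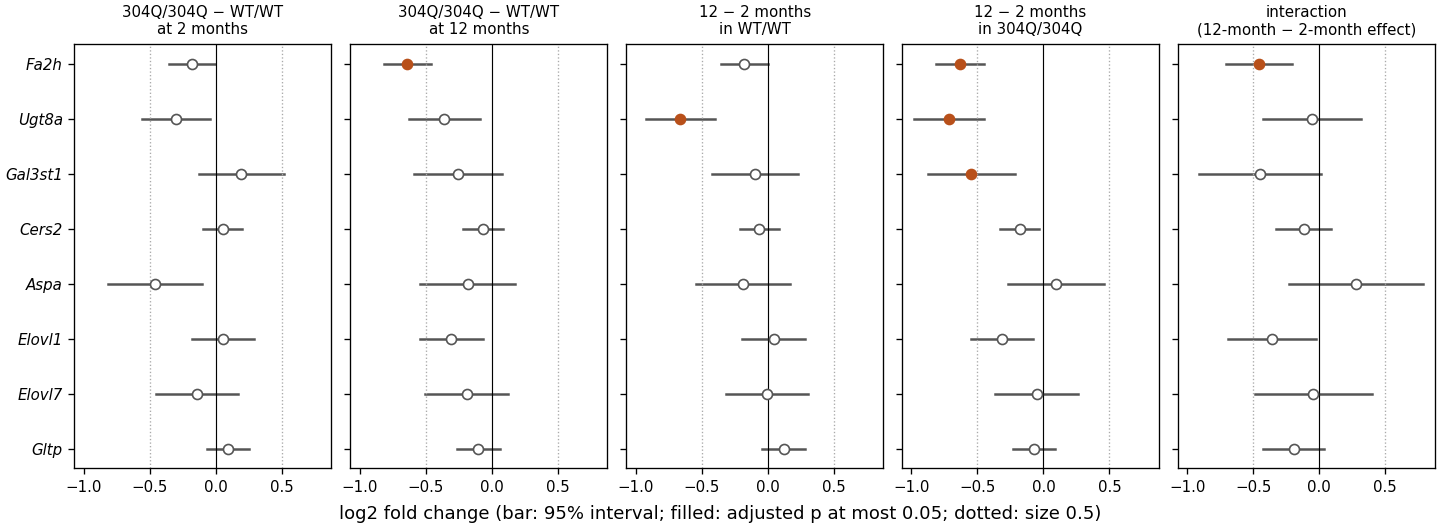
Log2 fold changes (x axes) with 95% intervals of the 8 genes in the 5 comparisons, 1 panel each, filled where the adjusted p was at most 0.05, with dotted lines at -0.5 and 0.5. Fa2h is filled for genotype at 12 months, age in 304Q/304Q and the interaction, Ugt8a for age in both genotypes and Gal3st1 for age in 304Q/304Q.

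The 8 genes varied together only in part. Over the 20 libraries, which include the group differences, log2 CPM of Fa2h and Ugt8a had a Pearson r of 0.807, which was 0.464 after the group means were removed. The r of Fa2h with Elovl1 was 0.615 and with Gltp 0.195. Among all genes tested, those most like Fa2h included Prr18 (r = 0.944) and Grm4 (0.928). Within groups these were 0.753 and 0.327. Ugt8a was most like Nrep (0.925), Tspan2 (0.912) and Hspa12a (0.902), of which Tspan2, a tetraspanin of oligodendrocytes, kept 0.873 within groups. The genes most like Gal3st1 were Tubb2b (0.905), Pea15a (0.828) and Slc7a10 (0.818). For Cers2, Aspa, Elovl1, Elovl7 and Gltp the highest r was 0.837 (Pacs2), 0.731 (Pmp22), 0.826 (Nefh), 0.755 (Gins4) and 0.765 (Rpl31-ps8). These values describe libraries that share groups and depth.

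The surrounding pathway was read from 5 lists, whose counts at 12 months stand beside the 12.5% of all genes tested that passed between genotypes. Upstream of the galactolipids, the list of sphingoid base and ceramide synthesis had 12 tested genes, of which 1 rose and 0 fell between genotypes. The riser was Cers4, a ceramide synthase of long acyl chains, which went from 581.3 ± 41.4 normalized counts (WT/WT) to 715.6 ± 16.8 (304Q/304Q) (log2 fold change 0.30, SE 0.064, adjusted p = 0.00272). Its median log2 fold change over the list was 0.03. Degs2 and Ormdl2 of this list had under 50 counts on average. In 304Q/304Q mice 0 of the 12 changed with age by edgeR or DESeq2, with 2 at an unadjusted p under 0.05.

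Fatty acid elongation and desaturation had 15 tested genes (Hacd4 was under the filter), with a median of -0.06 between genotypes at 12 months. Fads1, the delta-5 desaturase, was the 1 that fell (log2 fold change -0.18, SE 0.053, adjusted p = 0.0234). In 304Q/304Q mice Fads1 (-0.20, SE 0.053, adjusted p = 0.0154) and the delta-6 desaturase Fads2 (-0.19, SE 0.050, adjusted p = 0.0151) fell with age. In WT/WT mice 3 fell, Fads2 (-0.19), the stearoyl-CoA desaturase Scd2 (-0.14) and Elovl4 (-0.22), and Tecr, the last enzyme of the elongation cycle, rose (0.16). With age, 4 of the 15 thus passed in WT/WT and 2 of the 15 in 304Q/304Q mice.

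Breakdown of galactolipids and other sphingolipids had 11 tested genes and 0 that passed between genotypes at 12 months by edgeR, with 3 at an unadjusted p under 0.05 and a median of -0.11. DESeq2 with surrogate variables called 2. Galc, the lysosomal enzyme that cleaves galactosylceramide, had 338.6 ± 40.3 and 348.8 ± 37.8 normalized counts (log2 fold change 0.04, SE 0.10, adjusted p = 0.826) and is named as the counterpart of Ugt8a.

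Other branches that use ceramide had 10 tested genes, of which 2 fell and 1 rose between genotypes at 12 months. Ceramide kinase, Cerk, fell (log2 fold change -0.33, SE 0.048, adjusted p = 3.47e-05), as did the GM3 synthase St3gal5 (-0.30, SE 0.046, adjusted p = 7.58e-05). B4galt6, a lactosylceramide synthase of the glucosylceramide branch, rose (0.32, SE 0.083, adjusted p = 0.0128). The median was 0.03. St3gal5 rose with age in WT/WT (0.16) and fell with age in 304Q/304Q mice (-0.15). Its interaction passed (-0.32, SE 0.065, adjusted p = 0.0086), as did that of B4galt6 (0.45, SE 0.12, adjusted p = 0.045).

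Around Aspa, the N-acetylaspartate and acetyl-CoA list had 9 tested genes and a median of -0.08 between genotypes at 12 months. The 2 that fell were Acss1, the mitochondrial acetyl-CoA synthetase (-0.33, SE 0.11, adjusted p = 0.0478), and Acly, ATP citrate lyase, which supplies cytosolic acetyl-CoA (-0.15, SE 0.041, adjusted p = 0.0196). Acss1 also fell with age in 304Q/304Q mice (-0.42, SE 0.11, adjusted p = 0.0154). At 2 months 0 genes of any of these 5 lists passed between genotypes by edgeR or DESeq2. Of their 12, 15, 11, 10 and 9 tested genes, 4 in all had an unadjusted p under 0.05, beside 5.55% of all genes.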

How the data were processed

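Polyadenylated cerebellar RNA of 20 mice was sequenced from stranded libraries, 1 library per mouse. The authors aligned reads with STAR (version 2.4.5b in the submitters' processing notes) to Ensembl GRCm38 and counted them per gene with Rsubread, and they deposited raw counts. Whole-number counts bear no correction for length or depth.

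Here, counts were scaled by TMM and tested with edgeR 4.0.16 (R 4.3.3, limma 3.58.1) in 1 quasi-likelihood model of the 4 groups, over the 12153 genes averaging 50 or more counts per library, which held 99.31% of all counts. Normalized counts are TMM-scaled to the mean library. Adjusted p-values are Benjamini-Hochberg over all genes tested, and "passed", "rose" and "fell" mean an adjusted p of at most 0.05. Log2 CPM used a prior count of 2. Gene positions and exon lengths came from a GENCODE annotation of GRCm38. Alternatives were DESeq2 1.42.0, 3 surrogate variables (sva 3.50.0) in either tool, DESeq2's size factors, other filters, models limited to the compared groups, the replicate block and each library left out. Removal of GC and length trends was chosen after seeing the data, as were the libraries left out for the lists, ratios and levels. Models were tested on simulated data.

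Members, lists and tests were chosen with earlier results of these data known. Named are the 8 members, up to 4 passing genes per list and comparison, the 3 genes most like a member, and Atxn3. Mbp, Mobp, Mal, Ermn, Myrf, Sox10 and Galc were named after their values were seen, and some genes of these rules are not reported here. Replicates of a group were separate mice, and each of the 40 pairs differed by more than sampling noise (chi-square per degree of freedom 4.43 to 23.9). Mice of a group were not equally alike. In WT/WT mice at 2 months, replicates 1 to 3 differed from replicates 4 and 5 by 12.8 to 21.5. Pairs within these sets differed by 4.43 to 6.19. Ugt8a was higher in the first set (727.6 to 930.2 normalized counts) than in the second (652.6 and 679.0). Gal3st1 was lower in the first (107.9 to 114.3) than in the second (133.5 and 145.6). Gltp was likewise higher and Cers2 lower in the first set, while Fa2h, Aspa, Elovl1 and Elovl7 overlapped. In WT/WT mice at 12 months, replicate 1 differed from the others by 17.6 to 23.9, and those from each other by 6.13 to 11.3. This replicate had the highest Ugt8a (644.8) and the lowest Gal3st1 (92.4) of its group. The cause of these differences was not tested. The common coefficient of biological variation was 0.113.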

Additional observations from a re-analysis of the deposited data

Results flagged for a closer look

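The genotype effect on Fa2h differed between the ages by -0.458 on the log2 scale (12 minus 2 months), by edgeR's interaction test (adjusted p = 0.0489). In 32 groups of 5 mice, 4 per gene, the highest and lowest mouse were compared with the rest by Dixon's ratio, and 3 groups exceeded its critical value of 0.71. Chance would flag about 1 in 20 groups. For Aspa, replicate 4 of the WT/WT mice at 12 months was high at 155.5 normalized counts. For Elovl7, replicate 1 of the WT/WT mice at 2 months was low at 170.3 and replicate 3 of the 304Q/304Q mice at 2 months was high at 257.1. Neither gene passed the test in any comparison.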

How the results depend on the processing

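The falls of Fa2h with genotype at 12 months and with age in 304Q/304Q mice, and of Ugt8a with age in both genotypes, passed the test in all 10 alternatives and all 20 fits that left out 1 mouse. At 12 months, 2 members passed instead of 1 with DESeq2, with surrogate variables in either tool and with GC and length trends removed (2 were DEGs in the last and with surrogate variables in edgeR), and 1 to 2 when single mice were left out. With age in WT/WT mice, 2 passed with the trends removed, and the count of DEGs was 0 there and with surrogate variables in either tool. With age in 304Q/304Q mice, 5 passed in DESeq2 with surrogate variables. For the interaction, 0 passed with the trends removed, a mean of at least 10 counts or no filter, and 0 to 1 (DEGs 0 to 1) without single mice.

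Most same-numbered mice did not deviate together (r from -0.323 to 0.551), and the numbers were not used to pair mice. Between the ages in WT/WT mice, replicates 1 (r = 0.551) and 4 (0.271) were most like their own number, and no other mouse was. Whether same-numbered mice shared handling was not tested. With the replicate block the Fa2h interaction had an adjusted p of 0.0683 and 0 members passed; the block changed no other member's call.

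Some values that did not pass changed sign. For Elovl7 these were genotype at 12 months (0.0377 in DESeq2 and 0.0296 in edgeR with surrogate variables), the interaction (0.287 and 0.281) and age in WT/WT (0.112 with the trends removed, beside -0.33 and -0.326 with surrogate variables). For Elovl1, age in WT/WT was -0.0976 and -0.0941 with surrogate variables and -0.0411 with the trends removed. For Aspa, age was 0.0191 in WT/WT with the trends removed, and -0.00591 and -0.00803 in 304Q/304Q with surrogate variables. Without single mice the ranges were -0.0416 to 0.122 (Elovl1, genotype at 2 months), -0.048 to 0.0997 (Elovl1, age in WT/WT), -0.0681 to 0.0561 (Elovl7, age in WT/WT), -0.167 to 0.0767 (Elovl7, age in 304Q/304Q), -0.164 to 0.0797 (Elovl7, interaction), -0.0325 to 0.201 (Aspa, age in 304Q/304Q) and -0.156 to 0.0719 (Ugt8a, interaction).

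Counts in the lists were small and moved. At 12 months, surrogate variables in edgeR gave 0 backbone genes, DESeq2 gave 2 elongation genes, DESeq2 with surrogate variables gave 2 breakdown genes, and the N-acetylaspartate list had 0 with surrogate variables in either tool and 1 with DESeq2's size factors. With age in WT/WT, surrogate variables gave 2 (DESeq2) and 1 (edgeR) elongation genes and 1 gene of other branches (edgeR), and DESeq2 gave 2 breakdown genes. Without single mice the 12-month counts were 0 to 2 (elongation), 0 to 1 (breakdown), 3 to 6 (other branches) and 1 to 2 (N-acetylaspartate). The WT/WT age counts were 0 to 1 (backbone), 0 to 5 (elongation), 1 to 3 (breakdown), 0 to 5 (other branches) and 0 to 1 (N-acetylaspartate). Age in 304Q/304Q gave 0 to 3 (elongation), 1 to 2 (other branches) and 0 to 1 (N-acetylaspartate), and the interaction 0 to 1 (elongation) and 1 to 3 (other branches). The causes were not tested. Depth limits Gal3st1 and Aspa most, with as few as 76 and 75 raw counts in a library.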
